A study of Mus musculus with 39 samples.

Results

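The 4 Groucho/Tle corepressor genes (Tle1, Tle2, Tle3 and Tle4) and the 4 Id genes (Id1, Id2, Id3 and Id4) were examined for RBPJ and Notch binding in the embryonic mouse cortex. A binding peak was counted as a peak of one of these genes when its nearest protein-coding transcription start site, in GENCODE release M21 on mm10 (GRCm38), belonged to that gene. By this rule 84 of 20809 consensus peaks on the nuclear chromosomes were assigned to the 8 genes, 52 to the Tle genes and 32 to the Id genes. The rule used position alone and no measured value, but the genes were chosen with earlier results of these data known. It passed over non-coding genes, and at 58 of the 84 peaks (32 Tle and 26 Id) the start site of a non-coding gene lay nearer.

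Notch signalling works through the DNA-binding protein RBPJ, which recruits the cleaved intracellular domain of Notch to activate targets such as the Hes and Hey genes. Hes and Hey proteins are bHLH repressors. Hes proteins silence proneural genes by recruiting Groucho/Tle proteins, corepressors that do not bind DNA themselves. Id proteins have a helix-loop-helix domain but no basic region: they pair with E proteins such as Tcf3, Tcf4 and Tcf12, keep them from DNA, and so hold back proneural bHLH factors by a second route. Both families are known for keeping cortical progenitors from differentiating.

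The data came from Targeted DamID (TaDa), in which the bacterial methylase Dam, joined to a DNA-binding or chromatin protein, adds a methyl mark to the GATC sequences around its binding sites. Cortices of wild-type MF1 mouse embryos were electroporated in utero at E13.5 with fusion plasmids and collected at E14.5. Expression was driven by the Hes5 promoter in radial glial cells (RGCs), the apical progenitors of the cortex, or by the Tα1 promoter in intermediate progenitor cells (IPCs), their basal progeny. In RGCs, human RBPJ1 was profiled in 3 samples and Notch in 4 (2 with mouse NICD, 2 with mouse NdECD), beside 5 Dam-only controls. In IPCs, human RBPJ1 was profiled in 3 samples and Notch in 4 (all mouse NICD), beside 4 Dam-only controls. All fusions were therefore expressed from plasmids, and both Notch fusions were truncated forms. The other 16 of the 39 samples (Dam-only in neurons or under a ubiquitous promoter, and full-length Notch) were not analysed here.

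The processed files gave 1 pooled peak list per protein and cell type, called RGC RBPJ, RGC Notch, IPC RBPJ and IPC Notch below, and 1 file in which overlapping peaks of the lists had been merged into consensus peaks and sorted into 8 clusters. They held positions only, without heights or values for individual samples, so depth and the spread between replicates were unknown and no test could be made. Shares of member peaks are followed by Wilson 95% intervals, and a count of 0 by the share that 3 counts of the total would give; both cover counting error and not variation between samples. Peaks around 1 gene are not independent of each other, and both lists of a cell type were called against the same Dam-only samples.

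Sequence at the start sites and at distal peaks is shown first, because it lets the calls be read against the DNA beneath them. The promoters are the 250 bases before a RefSeq start site on GRCm38, written 5′ to 3′ on the strand of the gene. Capitals mark TTCCCA, the core of the RBPJ site, in either orientation (TGGGAA on the other strand), and the palindrome CACGTG, a form of E-box, which was looked for after the sequences had been seen. The printed promoters of Tle3 and Tle4 were covered whole by RBPJ peaks and were the ones that held CACGTG. The Id3 promoter was also covered whole by an RGC RBPJ peak, held neither word and is not printed. That of Tle1 is shown because only the IPC RBPJ list covered it. That of Id4 is shown because it held the sole RBPJ core word among the promoters read.
Tle1 promoter, chr4:72200894-72201143, minus strand: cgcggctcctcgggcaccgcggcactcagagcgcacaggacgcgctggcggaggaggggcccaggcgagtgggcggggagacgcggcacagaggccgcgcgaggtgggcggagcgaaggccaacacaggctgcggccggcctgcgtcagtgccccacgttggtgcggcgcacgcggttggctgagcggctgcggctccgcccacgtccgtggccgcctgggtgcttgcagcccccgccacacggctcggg
Tle3 promoter, chr9:61372116-61372365, plus strand: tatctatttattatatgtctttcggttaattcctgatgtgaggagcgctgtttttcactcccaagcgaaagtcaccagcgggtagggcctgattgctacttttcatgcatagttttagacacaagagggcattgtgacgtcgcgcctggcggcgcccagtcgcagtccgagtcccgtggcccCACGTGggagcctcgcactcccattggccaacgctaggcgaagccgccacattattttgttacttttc
Tle4 promoter, chr19:14598184-14598433, minus strand: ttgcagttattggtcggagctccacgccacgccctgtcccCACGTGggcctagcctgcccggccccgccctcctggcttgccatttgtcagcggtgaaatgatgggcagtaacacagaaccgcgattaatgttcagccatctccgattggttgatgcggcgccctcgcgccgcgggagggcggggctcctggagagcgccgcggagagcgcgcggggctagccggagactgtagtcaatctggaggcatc
Id4 promoter, chr13:48260866-48261115, plus strand: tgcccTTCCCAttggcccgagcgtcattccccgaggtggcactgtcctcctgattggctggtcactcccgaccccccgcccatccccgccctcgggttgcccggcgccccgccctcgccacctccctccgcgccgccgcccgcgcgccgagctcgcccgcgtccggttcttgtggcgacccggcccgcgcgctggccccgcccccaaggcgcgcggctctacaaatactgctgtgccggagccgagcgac

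The RefSeq promoter table matched 7 of the 8 genes with 8 windows, 2 of them at Tle4; Id1 had no entry. TTCCCA was found in 1 of the 8 windows, that of Id4, against 21.6% of all 32851 promoter windows. CACGTG was found in 2 of the 8, those of Tle3 and Tle4 printed above, against 6.02% of all windows. These are matches of letters and do not show that a factor was bound there. The Id4 word lay outside the RGC RBPJ peak that covered the Id4 start site, which began at chr13:48260959.

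TTCCCA was present in 77 of the 84 member peaks (91.7%, 83.8 to 95.9) and in 82.9% of all consensus peaks, which were narrower, with a median width of 1890 bp against 2840 bp. Words were counted as matches of letters, here and below, without masking repeats of the genome. The windows that follow are the 150 bases with the most copies of TTCCCA in the peak, on the plus strand. They are shown for the distal Tle3 peak called in all 4 lists, for the single peak of Tle2, for the distal Id2 peak called in 3 lists, and for the stretches upstream of Tle4, Id1 and Id3 that hold a pair of words.
Tle3 distal peak, chr9:61277480-61277629: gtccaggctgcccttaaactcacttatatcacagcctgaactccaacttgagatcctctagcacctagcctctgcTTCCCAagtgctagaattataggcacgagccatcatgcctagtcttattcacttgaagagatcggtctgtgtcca
Tle2 intron, chr10:81576046-81576195: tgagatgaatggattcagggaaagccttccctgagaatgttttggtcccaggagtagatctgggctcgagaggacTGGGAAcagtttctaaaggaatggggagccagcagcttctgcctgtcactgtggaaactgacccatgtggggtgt
Tle4 upstream, chr19:14599978-14600127: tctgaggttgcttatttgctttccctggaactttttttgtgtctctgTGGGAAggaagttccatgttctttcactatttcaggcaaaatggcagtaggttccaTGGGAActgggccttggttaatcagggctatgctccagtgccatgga
Id1 upstream, chr2:152734257-152734406: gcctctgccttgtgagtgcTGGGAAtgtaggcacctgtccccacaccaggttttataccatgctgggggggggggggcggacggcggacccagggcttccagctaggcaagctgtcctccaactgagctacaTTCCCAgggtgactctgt
Id2 distal peak, chr12:25293931-25294080: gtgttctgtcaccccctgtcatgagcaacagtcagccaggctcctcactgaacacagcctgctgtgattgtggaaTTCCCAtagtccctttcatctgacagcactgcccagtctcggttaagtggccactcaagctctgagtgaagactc
Id3 upstream, chr4:136140620-136140769: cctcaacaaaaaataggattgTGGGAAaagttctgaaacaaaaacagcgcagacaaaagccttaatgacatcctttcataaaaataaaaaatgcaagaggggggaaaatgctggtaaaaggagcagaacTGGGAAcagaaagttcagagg

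Each of the 8 genes had at least 1 RGC RBPJ peak, whereas 31.7% of 21938 protein-coding genes had one. RGC Notch peaks were assigned to 6 of the 8 (all but Tle2 and Id1; 11.7% of genes), IPC RBPJ peaks to 6 (all but Tle2 and Id3; 16.4%) and IPC Notch peaks to 5 (Tle1, Tle3, Tle4, Id2 and Id4; 6.97%). Every member thus had a consensus peak, against 39.7% of protein-coding genes. Because the members were chosen with earlier results known, the shares of all genes are a description and not a test. Tle2 was the only one of the 8 with no peak outside RGC RBPJ.

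Peak numbers varied far more within each family than between the families. Tle3, a Groucho corepressor that partners Hes proteins, had 25 consensus peaks, Tle4 had 17, Tle1 had 9 and Tle2 had 1. Among the Id genes, Id4 had 22, Id2 had 6, Id1 had 3 and Id3 had 1. Tle3 and Id4 both stood at the 99.9th percentile of protein-coding genes by number of peaks, Tle4 at the 99.7th and Tle1 at the 98.4th, whereas Tle2 and Id3 stood at the 60.3rd. This order rested on the rule: with start sites of non-coding genes counted too, Tle4 had the most with 11 peaks, Tle3 had 5, Tle1 4, Id1 and Id2 2 each, Id3 and Id4 1 each and Tle2 0. Among peaks within 100 kb, Tle3 had 13, Tle1 8, Id4 7, Tle4 5, Id1 and Id2 3 each, and Tle2 and Id3 1 each.

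**Figure D1:**
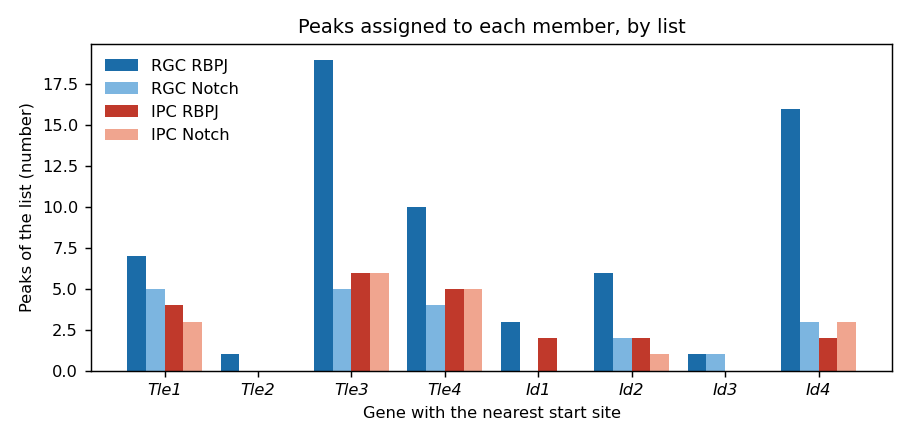
Number of peaks (y axis) of each of the 4 deposited lists whose nearest protein-coding start site belongs to the gene on the x axis. RGC RBPJ is the tallest bar at every gene except Id3, where 1 RGC RBPJ and 1 RGC Notch peak were found; Tle3 (19) and Id4 (16) have the most RGC RBPJ peaks.

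Genes that lie alone collect distant peaks, so the counts were also divided by territory, the sequence whose nearest protein-coding start site is that of the gene. Territories ran from 20.8 kb for Tle2 and 31.2 kb for Id1 to 657 kb for Id4 and 997 kb for Tle4. Per 100 kb of territory, Id1 then had the highest density with 9.63 peaks, followed by Tle2 with 4.82, Tle3 with 4.60 and Id4 with 3.35. Tle4 had 1.71, Id3 1.66, Tle1 1.53 and Id2 0.954. The median of the 8720 protein-coding genes with a peak was 1.78 per 100 kb. The families were close to each other on this scale, with 2.42 per 100 kb for Tle and 2.32 for Id, and the genome as a whole had 0.763.

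A consensus peak covered a start site of 7 of the 8 genes (16.0% of protein-coding genes), and for all 7 a peak of the RGC RBPJ list did so (11.7%). IPC RBPJ peaks covered a start site of 5 genes, namely Tle1, Tle3, Tle4, Id1 and Id2 (3.73%). No RGC Notch peak covered a start site of any of the 8 (3.61%), and IPC Notch did so only at Tle3 (1.12%). Of the 20 RGC Notch peaks assigned to these genes 0 were on a start site, beside 20.2% of all 3702 RGC Notch peaks. Counting error alone allows up to 15%, but the 20 peaks lay around 6 genes and are not independent. By gene, 0 of 8 is near the 3.61% of all genes. Over 100 kb from a start site lay 45% of these 20 peaks and 21.6% of the whole list.

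**Figure D2:**
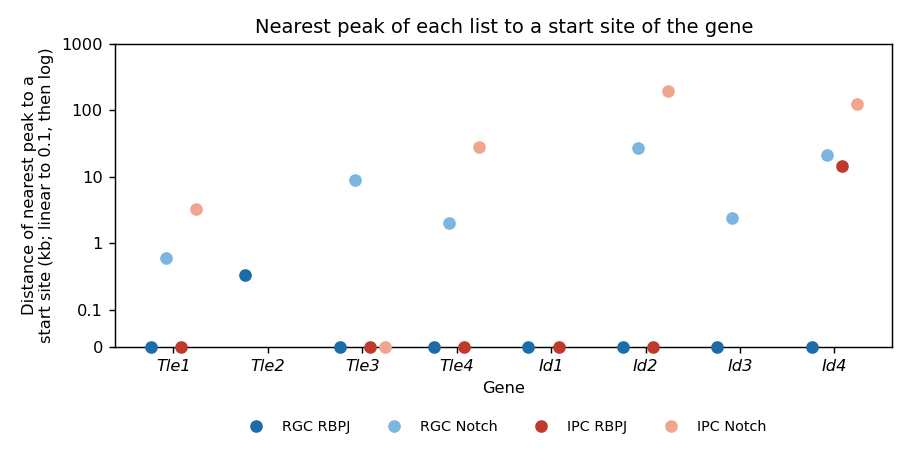
Distance from a start site of each gene to the nearest peak of each list, in kb; the y axis is linear up to 0.1 kb and logarithmic beyond, and 0 means that the peak covers a start site. RGC RBPJ points lie at 0 for all genes but Tle2 (0.337 kb), whereas the RGC Notch points lie between 0.594 kb (Tle1) and 27.2 kb (Id2).

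Tle1 had the most crowded start region. Its consensus peak, chr4:72194107-72203486, was 9380 bp wide, in cluster 7, and was called in all 4 lists; 0.255% of all consensus peaks were as wide. All 4 lists shared the stretch chr4:72194973-72195793 on the gene body side, where an IPC RBPJ peak lay 2870 bp from the nearest start site. An RGC RBPJ peak covered 3 of the 8 start sites there and stopped short of the 5′ end of the gene, and a second one began beyond it, 611 bp from the nearest start site. Another IPC RBPJ peak covered all 8 start sites, the 5′ end and the promoter printed above. The RGC Notch peak ended 594 bp from the nearest start site and the IPC Notch peak 3299 bp from it, both on the gene body side. A further Tle1 peak in an intron, chr4:72165433-72168891, was called in RGC RBPJ, RGC Notch and IPC Notch and was in cluster 6.

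Tle3 had 2 consensus peaks on start sites. The one at the 5′ end, chr9:61366518-61376504 in cluster 6, was 9987 bp wide and was called in RGC RBPJ, which covered all 15 start sites in it, and in IPC Notch, which covered 13 but not the 5′ end. The second, chr9:61399608-61406669 in cluster 6, lay on internal start sites about 30.8 kb into the gene and was called in RGC RBPJ, IPC RBPJ and IPC Notch. No Tle3 start site was covered by RGC Notch, whose nearest peak was 8.98 kb away. The distal peak chr9:61277411-61281096, 91.3 kb upstream and in cluster 6, was called in all 4 lists, which overlapped in the window of sequence printed above.

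Tle4 and Tle2 were simpler at the start site. The Tle4 peak chr19:14597751-14600763 in cluster 7 was called for RBPJ in both cell types, and each of these peaks covered the 5′ end and the promoter printed above. The other RefSeq promoter window of Tle4, chr19:14597214-14597463, lay in no consensus peak. The nearest RGC Notch peak lay in the gene 2.02 kb from a start site, and the nearest IPC Notch peak 27.8 kb from one; in both cases this was the internal start site of Tle4. A distal Tle4 peak, chr19:14776545-14777872, 178 kb upstream and in cluster 2, was called in RGC RBPJ, IPC RBPJ and IPC Notch. The single Tle2 peak, chr10:81575869-81576438, was 570 bp wide, lay in an intron 337 bp from a start site, was called in RGC RBPJ alone and was in cluster 2.

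The start sites of the Id genes carried RBPJ and no Notch peak. Id1, an inhibitor of E proteins also known as a BMP target, had RGC RBPJ and IPC RBPJ peaks over its start site (consensus chr2:152734194-152739019, cluster 4), and no Notch peak of either cell type was assigned to it. Id2 had 2 such consensus peaks, read by GENCODE start sites. In chr12:25094473-25096201 (cluster 7) the RGC RBPJ list covered 2 internal start sites. In chr12:25096735-25100362 (cluster 6) the IPC RBPJ list covered the 5′ end of the GENCODE gene, while the RGC RBPJ peak there lay 288 bp from it. The RefSeq promoter of Id2, chr12:25096093-25096342, overlapped the first of these consensus peaks, called in RGC RBPJ alone, and not the second. By peak edges the RBPJ lists of the 2 cell types thus covered different start sites of Id2. GATC sites, which TaDa reads, numbered 3.13 per kb in Id2 peaks, so a gap of 288 bp is close to their spacing. A difference between the cell types at the 5′ end cannot be read from it. Id3 had 1 consensus peak, chr4:136139365-136145189 in cluster 5, in which RGC RBPJ covered all 3 start sites and RGC Notch stopped 2.37 kb upstream.

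Id4, the Id gene with the most peaks, had a narrow set of calls at its start. Its start-site peak chr13:48260959-48262895 was called in RGC RBPJ alone, held no TTCCCA and was in cluster 3, the cluster of RBPJ in IPCs, in which 3.58% of peaks held an RGC RBPJ call. Upstream there was no peak for 98.5 kb, and then 16 peaks out to 498 kb. The other 6, the start-site peak included, reached to 24.0 kb after the 5′ end. Of the 22 Id4 peaks 16 were called in RGC RBPJ, 3 in RGC Notch, 2 in IPC RBPJ and 3 in IPC Notch, and none was called for both proteins in the same cell type. Calls for both proteins were rare in general, at 7.77% of all consensus peaks in RGCs and 2.36% in IPCs, and a count of 0 in 22 peaks allows up to 13.6%.

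**Figure D3:**
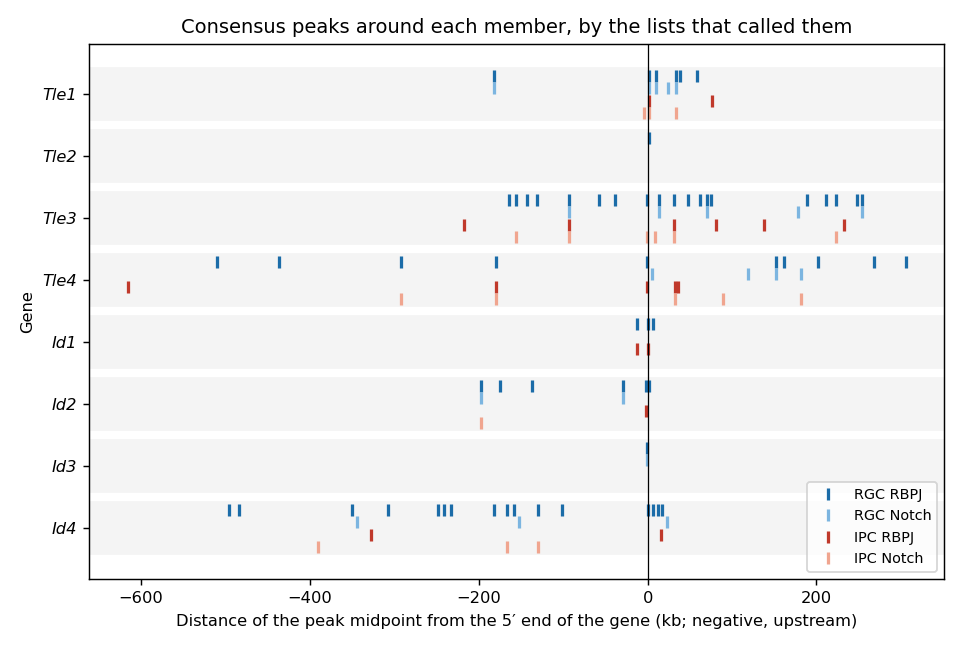
Midpoints of the consensus peaks of each gene relative to its 5′ end, in kb (negative is upstream); each gene has 1 row for each list, and a peak called in several lists is drawn in each. Peaks of Tle3, Tle4 and Id4 are spread widely, the 16 upstream Id4 peaks end 98.5 kb before the gene, and the peaks of Tle2, Id1 and Id3 lie close to it.

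Over 100 kb from any protein-coding start site lay 43 of the 84 member peaks (51.2%, 40.7 to 61.6), against 22.7% of all consensus peaks. Id4 held 15 of them, Tle3 and Tle4 12 each, Id2 3, Tle1 1 and Tle2, Id1 and Id3 0. The territories of Id4, Tle3, Tle4 and Id2 stood at the 96.5th, 95.4th, 98.4th and 96.3rd percentile of protein-coding genes. The part that territory plays in these distances was not tested. By family the peaks over 100 kb away were 25 of 52 Tle peaks (48.1%, 35.1 to 61.3) and 18 of 32 Id peaks (56.2%, 39.3 to 71.8). Without Tle3 the Tle share was 48.1% (30.7 to 66.0), and without Id4 the Id share was 30% (10.8 to 60.3). On a start site lay 4 Tle peaks (7.69%, 3.03 to 18.2) and 5 Id peaks (15.6%, 6.86 to 31.8), against 16.6% of all. Of the other Tle peaks 14 lay in the body of the gene and 34 between genes, whereas 27 Id peaks lay between genes and 0 in the body. The Id genes are short, from 1.16 kb (Id1) to 4.80 kb (Id4), and the Tle genes are 16.3 kb (Tle2) to 149.9 kb (Tle4) long. No member peak lay in the body of another protein-coding gene.

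Distances were also read for the peaks of each list. The median distance to a start site was 130.3 kb for the 63 RGC RBPJ peaks, 61.7 kb for the 20 RGC Notch peaks, 14.8 kb for the 21 IPC RBPJ peaks and 110.0 kb for the 18 IPC Notch peaks. Over the whole lists these medians were 21.7, 17.8, 19.7 and 25.7 kb, and the part of territory was not tested here either. The 4 IPC Notch peaks of the Id genes all lay 127 kb or more from a start site, 3 of them upstream of Id4 and 1 upstream of Id2.

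The comparison of the families by list asked whether corepressors and Id proteins carry the same kinds of binding. In RGC RBPJ 36 Tle peaks (69.2%, 55.7 to 80.1) and 26 Id peaks (81.2%, 64.7 to 91.1) were called, against 67.6% of all consensus peaks. RGC Notch was called at 14 Tle peaks (26.9%, 16.8 to 40.3) and 6 Id peaks (18.8%, 8.89 to 35.3), against 17.7%. IPC RBPJ was called at 13 Tle peaks (25%, 15.2 to 38.2) and 5 Id peaks (15.6%, 6.86 to 31.8), against 26.2%. For IPC Notch the values were 14 Tle peaks (26.9%, 16.8 to 40.3) and 4 Id peaks (12.5%, 4.97 to 28.1), against 10.1%. In each list the intervals of the families overlapped. Such overlap is not a test, and the intervals treat peaks around the same gene as independent, which they are not. A difference between Tle and Id was therefore not tested, and these counts do not decide whether the families differ.

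**Figure D4:**
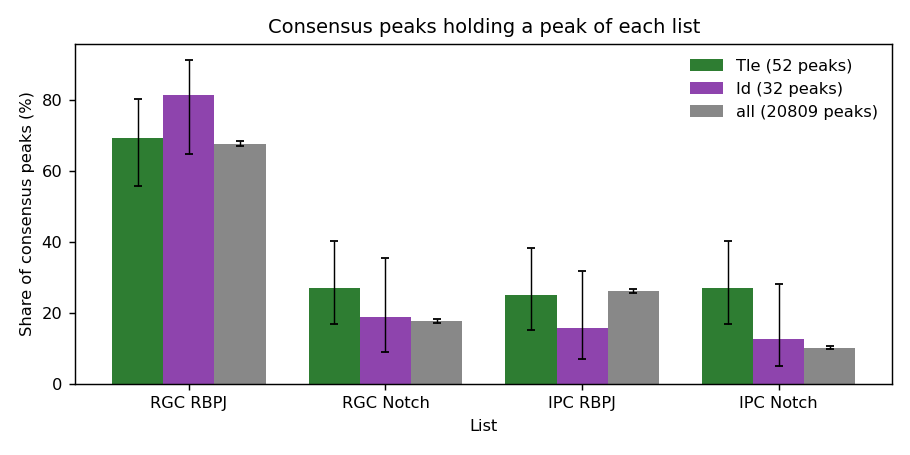
Share of consensus peaks (y axis, %) that hold a peak of each list (x axis), for the Tle genes (52 peaks), the Id genes (32) and all peaks (20809); error bars are Wilson 95% intervals. The Tle and Id intervals overlap in all 4 lists, and the Tle share in IPC Notch is 26.9% beside 10.1% of all peaks.

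Peaks with both proteins were counted for each cell type. RBPJ and Notch were called in RGCs at 9 Tle peaks (17.3%, 9.38 to 29.7), 4 of them at Tle1, 4 at Tle3 and 1 at Tle4, and at 3 Id peaks (9.38%, 3.24 to 24.2), 2 of them at Id2 and 1 at Id3. Over all consensus peaks this share was 7.77%. In IPCs both were called at 5 Tle peaks (9.62%, 4.18 to 20.6) and 0 Id peaks, which allows a share of up to 9.38%, against 2.36% of all. Calls in 3 or 4 lists were found at 5 Tle peaks (9.62%, 4.18 to 20.6) and 1 Id peak (3.12%, 0.554 to 15.7), the Id2 peak chr12:25292259-25295430 that lay 195 kb upstream in cluster 6, against 3.88% of all. These intervals overlapped between the families too, and a difference was again not tested. Member peaks were wider than the rest, as given above, and the part that width plays in calls by several lists was not tested.

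Tle3 held 25 of the 52 Tle peaks and Id4 held 22 of the 32 Id peaks. Without Id4 the Id family had 10 peaks, and all 10 were called in RGC RBPJ, 3 in RGC Notch, 3 in IPC RBPJ and 1 in IPC Notch. Without Tle3 the Tle family had 27 peaks, of which 17 were called in RGC RBPJ and 8 in IPC Notch. Peaks called for Notch in either cell type without RBPJ in either numbered 8 at Tle genes (2 at Tle1, 2 at Tle3 and 4 at Tle4) and 4 at Id genes, all 4 of Id4. These were 15.4% of Tle peaks (8.01 to 27.5) and 12.5% of Id peaks (4.97 to 28.1), near the 13.0% of all consensus peaks.

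The clusters had been formed by the authors from binding intensity, and they describe clusters 2, 4, 6 and 7 as bound by both proteins, 4 in RGCs and the other three in both cell types. In these clusters lay 26 Tle peaks (50%, 36.9 to 63.1) and 15 Id peaks (46.9%, 30.9 to 63.6), against 36.3% of all consensus peaks. Cluster 6 took 13 Tle peaks, 8 of them of Tle3, and 5 Id peaks (10.8% of all peaks). Cluster 4 took 6 Tle and 7 Id peaks (9.79%), cluster 7 took 4 and 2 (11.0%), and cluster 2 took 3 and 1 (4.76%).

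Among the clusters described for 1 protein, cluster 5, bound by RBPJ in RGCs, held 9 Tle and 8 Id peaks (22.5% of all peaks), and cluster 8, of the same kind, held 3 and 1 (14.4%). Cluster 1, bound by Notch in RGCs, held 7 Tle and 5 Id peaks (10.5%), and cluster 3, bound by RBPJ in IPCs, held 7 and 3 (16.3%). Clusters and calls did not always match: at the start sites Id1 was in cluster 4 without a Notch call, Id3 in cluster 5 with one and Id4 in cluster 3 without a call in IPCs, and the intronic Tle2 peak was in cluster 2 with a call in RGC RBPJ alone. In cluster 4 as a whole, 41.7% of peaks held an RGC Notch call.

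**Figure D5:**
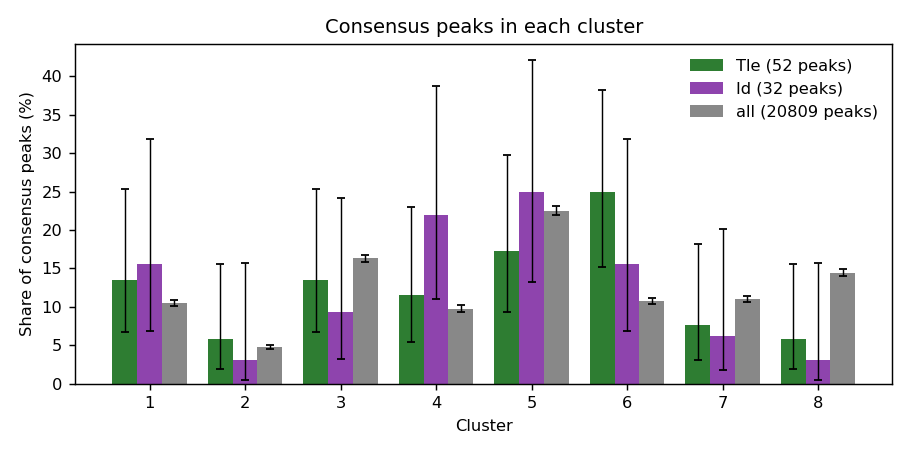
Share of consensus peaks (y axis, %) in each of the authors' 8 clusters (x axis), for the Tle genes (52 peaks), the Id genes (32) and all peaks (20809); error bars are Wilson 95% intervals. Cluster 6 holds 25% of Tle and 15.6% of Id peaks beside 10.8% of all, and cluster 8 holds 5.77% and 3.12% beside 14.4%.

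RBPJ core words were counted in the whole sequence of each peak. TTCCCA occurred 1.30 times per kb in Tle peaks and 1.26 times in Id peaks, against 1.17 in all consensus peaks. Among the genes with more than 1 peak the density ran from 1.06 at Id2 to 2.02 at Id1, whose start-site peak held 11 words. Facing words, TGGGAA followed after 15 to 17 bases by TTCCCA as in paired RBPJ sites, were in 0 of the 84 peaks (which allows up to 3.57%), and 48 such pairs were found over all 20809 peaks. Only exact copies of both words were searched, so paired sites with a variant word were not counted. GC content was 46.8% in Tle peaks, 45.6% in Id peaks and 46.2% in all, and GATC sites, which TaDa reads, numbered 2.59, 3.20 and 2.91 per kb. No GATC site was found in 4 of the 84 peaks (4.76%, 1.87 to 11.6) and in 9.76% of all.

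Partners and relatives of these families, and the Hey genes, were read in the same way. Of the Hes and Hey genes, 5 of 6 had a peak on a start site. Hes1, the main effector of Notch in progenitors, had 12 peaks and was the one among them with its start site covered in all 4 lists. Hes5 had 3 peaks, Hey1 4, Heyl 2, Hey2 1 and Hes6 0. The start site of Hes5 was covered in RGC RBPJ alone. Plasmids of the RGC samples carried the Hes5 promoter, as the paper marks, so plasmid and genomic signal cannot be told apart there. Of the other Groucho relatives, Aes, a short family member, had 1 peak, which was called in RGC Notch on its start site, and Tle6 had 0.

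Among the E proteins that Id proteins bind, Tcf4 had 18 peaks, with 15 called in RGC RBPJ, 6 in RGC Notch, 5 in IPC RBPJ and 3 in IPC Notch, and its start sites were covered in RGC RBPJ, RGC Notch and IPC Notch. Tcf12 had 3 peaks, of which 1 was called in RGC RBPJ and 2 in IPC RBPJ. Tcf3 had 0.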

How the data were processed

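TaDa reads had been mapped to mm10 by the authors, who then ran Macs2 in broad mode on every fusion sample against every Dam-only sample, set an FDR limit and kept only peaks common to all such runs. The deposited lists hold other values than reads: start and end positions in bp, pooled by condition, with constant scores. Of columns of single samples, 0 were left unused. Peaks on the 21 nuclear chromosomes were assigned to the nearest protein-coding start site (GENCODE M21), distance 0 meaning that the peak covers it. A list called a consensus peak when they shared at least 1 bp, which matched the names in the cluster file for 4 of 4 lists. Sequence came from GRCm38 and the RefSeq promoter table. Python 3.11.15, pandas 2.3.3, scipy 1.17.1 and pysam 0.24.0 were used, and assignment and word counts were tested on simulated data. All 8 members were named, with single peaks on start sites, in 3 or 4 lists or nearest the gene. So were the genes of 3 related lists (Hes and Hey, other Groucho relatives, E proteins). Members and lists were chosen with earlier results of these data known. Alternatives covered annotation, distance, width and overlap.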

Additional observations from a re-analysis of the deposited data

How the results depend on the processing

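No paired analysis was possible because the lists pool the samples of a condition, and for the same reason no replicate could be left out and no depth was known. A stricter peak threshold was not run, since the scores are constant, and the share on a start site has no value when distance is taken from the midpoint. Of 131 values under 10 alternatives, 95 stayed within 1.5 times the reported count or within the interval of the reported share, and 36 moved further. With start sites of all annotated genes, non-coding ones included, 20 Tle and 6 Id consensus peaks were left. The calls in RGC RBPJ, RGC Notch, IPC RBPJ and IPC Notch were then 12, 7, 6 and 7 for Tle and 6, 1, 3 and 0 for Id, 20% of Tle and 83.3% of Id peaks were on a start site, and 66.7% of Id peaks were in clusters 2, 4, 6 and 7. Within 100 kb there were 27 Tle and 14 Id peaks, with 17 Tle and 12 Id peaks called in RGC RBPJ, 8 and 3 in RGC Notch, 9 and 0 in IPC Notch, and 35.7% of Id peaks on a start site. Where a list had to cover 50% of the consensus peak, 9 Tle peaks were called in IPC Notch. TTCCCAC occurred 0.275 times per kb of member peaks, against 1.28 for TTCCCA. Without Id4, 100% of Id peaks were called in RGC RBPJ; this alternative was added after the data had been seen. Non-coding start sites and the distance limit take peaks away by construction. Shares over all consensus peaks were not computed with non-coding start sites, within 100 kb or at 50% cover. The member values under these alternatives therefore have no background beside them, and the shares over all peaks given above do not serve as one.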
